A study of Mus musculus with 3 samples.

Results

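E3 and T9 are mouse epiblast stem cell (EpiSC) lines, and they were compared with each other across every gene that could be measured in either of them. A gene entered the comparison if at least 1 of its named probes had a detection p under 0.01 on the E3 or the T9 array, which held for 8146 of the 16593 genes on the array (11131 named probes of 25697 probes in all). Per the labels, the background of E3 is hybrid and that of T9 is 129. Both were untreated and grown on inactivated CF1 mouse embryonic fibroblasts in KSR medium with FGF2 at 5 ng/ml, and both were collected below confluence with collagenase IV so as to carry few feeder cells. OG2, an embryonic stem cell (ESC) line of hybrid background, served only as a reference level. It was untreated and grown on gelatin without feeders, in KSR medium with LIF (1000 U), CHIR99021 (3 uM), which inhibits GSK3, and PD0325901 (1 uM), which inhibits MEK, and was collected directly on the dish. RNA of each line was hybridised to 1 Illumina bead array. Line, genetic background, sex chromosome content and culture therefore cannot be told apart, no difference has a test, and sizes are given with the standard error over the beads of a probe, which covers the reading of 1 array and no repeat culture.

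EpiSCs are derived from the epiblast of the embryo after implantation, an epithelial sheet of pluripotent cells. FGF and Activin/Nodal signals maintain them, whereas mouse ESCs resemble the epiblast before implantation. In the embryo, cells of the posterior epiblast receive Wnt, Nodal and BMP signals, switch on primitive streak genes, lose E-cadherin and leave the sheet as mesoderm and endoderm. EpiSC lines are known to differ from each other in how many of these early lineage genes they transcribe.

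Levels are given as normalized log2 intensity, on which a step of 1 is a 2-fold change. The dimmest detected probe of an array lay at 4.78 in T9 and at 4.87 in both other lines. The EpiSC lines were alike for most genes. Among the 7092 genes detected in both lines the median difference (E3 minus T9) was 0.02, the lower and upper quartiles were -0.23 and 0.28, and 83.5% of genes lay within 1.5-fold. The levels correlated with a Pearson's r of 0.967 across genes, which are not independent replicates and share the arrays. The median bead standard error of a difference was 0.13. At least 2-fold higher levels were found in E3 for 209 genes (2.57% of 8146) and in T9 for 294 genes (3.61%). Of these, 162 (2.28% of 7092) and 190 (2.68%) were detected in both lines, 352 together (4.96%). A further 385 genes were detected in E3 alone and 669 in T9 alone. Such a gene passed through the line in which it was high, so its size is given as "at least", against the lowest detected level of the other array or the gene's own level if higher, and counts over gene lists below lead with the members detected in both lines. A difference of at least 4-fold was reached by 22 genes towards E3 and 59 towards T9. The shares to set beside the 2-fold counts of lists below are 2.28% towards E3 and 2.68% towards T9, over genes detected in both lines. Of all 8146 measured genes, 4097 had the higher level in E3.

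**Figure D1:**
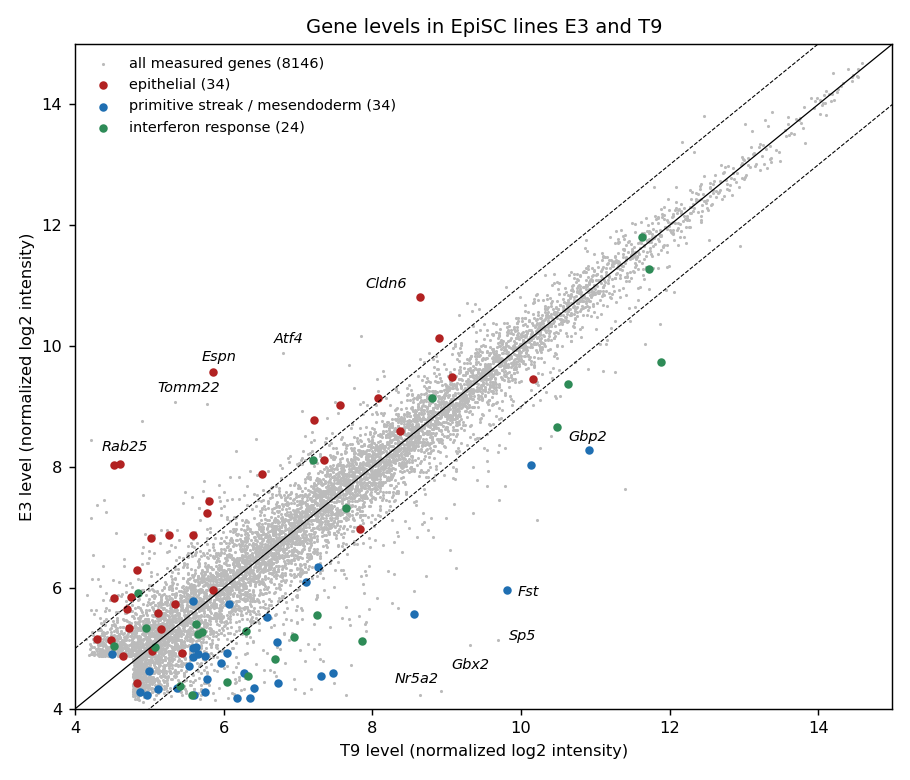
Level of each of the 8146 measured genes in T9 (horizontal axis) and E3 (vertical axis), in normalized log2 intensity, with epithelial, primitive streak and interferon response genes in colour; the solid line marks equal levels and the dashed lines a 2-fold difference. Epithelial genes such as Espn and Cldn6 lie above the upper dashed line, and Fst and Gbp2 lie below the lower one.

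Epiblast stem cell markers were present in both lines. Pou5f1, the transcription factor required for pluripotency, had a level of 12.65 in E3, 12.41 in T9 and 12.53 in OG2. Of 10 EpiSC markers with a probe, 9 were detected in both lines, Foxd3 being the exception. The 4 trophoblast markers chosen (Elf5, Gata3, Hand1 and Tpbpa) were detected in neither EpiSC line. In a wider trophoblast list, 8 of 23 genes on the array were measured, 6 in both lines and 2 in T9 alone. Of the 6, 1 was 2-fold higher in T9 and 0 in E3, with a median difference of -0.61. With 1 gene, nothing is read from this count. Feeder fibroblast markers were few, with 2 of 9 detected in E3 and 3 in T9, against 5 in the feeder-free OG2, and their summed level on the log2 scale was 8.86 in E3, 8.09 in T9 and 9.44 in OG2. Col1a2, Col3a1, Postn and Pdgfrb were not detected on any array.

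A second probe is the only internal repeat on such arrays, although it shares the RNA and the array with the first. Of the 503 genes 2-fold apart (6.17% of those measured), 111 had another measured probe. All other probes had the same sign in 107 of these genes and were also 2-fold apart in 48. The remaining 392 genes rest on 1 probe. For genes named below as 2-fold apart, another measured probe that fell short of 2-fold is given with its difference (E3 minus T9).

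**Figure D2:**
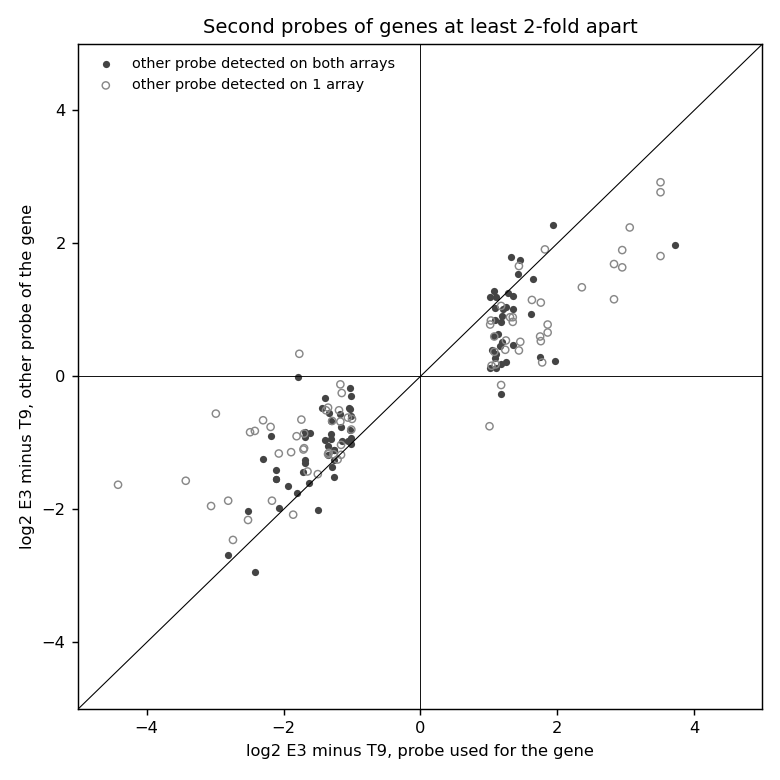
Difference E3 minus T9 (log2) of the probe used for a gene (horizontal axis) against that of another measured probe of the same gene (vertical axis), for the 111 genes with another probe among those 2-fold apart; filled points are other probes detected on both arrays and open points those detected on 1. Nearly all points lie in the quadrants of equal sign (79 of 80 filled points), and most lie nearer to 0 than the line of equal difference.

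The core of the pluripotency network was shared by the lines. Of 14 core pluripotency genes detected in both lines, 2 were 2-fold higher in E3 and 0 in T9, with a median difference of 0.24. Sox2, a partner of Pou5f1 on DNA, had levels of 8.20 in E3, 8.44 in T9 and 9.24 in OG2. Nanog, another core factor, had levels of 9.74, 9.89 and 11.27. Neither Sox2 nor Nanog differed by more than 0.24 between the EpiSC lines, and the other probe of Sox2 had the opposite sign (0.17). The exceptions were L1td1, an RNA-binding protein of pluripotent cells, with 10.17 in E3, 7.85 in T9 and 9.99 in OG2 (4.99-fold, log2 difference 2.32, bead SE 0.13), and Utf1, a chromatin factor of undifferentiated cells, with 10.69, 9.38 and 9.51 (2.48-fold).

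Genes of the post-implantation epiblast were on balance higher in E3. Of 16 detected in both lines, 5 were 2-fold higher in E3 and 1 in T9, and the median was 0.29. Dnmt3b, the de novo DNA methyltransferase of the epiblast, had a level of 13.81 in E3, 12.47 in T9 and 11.50 in OG2, 2.52-fold higher in E3, and its other probe differed by 1.79. Otx2, a homeobox factor of anterior epiblast, had levels of 10.98, 9.80 and 6.51 (2.28-fold). Zic2, a zinc finger factor of the primed state, had 8.88, 7.87 and 6.08 (2.01-fold). The secreted factor Fgf5, the textbook marker of this stage, was alike in the lines with levels of 8.59 and 8.38, and was not detected in OG2 (4.25). The member higher in T9 was Epha1, an ephrin receptor, with levels of 7.81, 9.11 and 4.26 (2.47-fold), and its 3 other probes differed by -0.67 to -0.94.

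Several genes associated with the naive state of ESCs were higher in T9. Of 14 naive genes detected in both lines, 5 were 2-fold higher in T9 and 0 in E3, with a median difference of -0.81. Gbx2, a homeobox gene that supports ESC self-renewal and is also used in the posterior embryo, had a level of 5.05 in E3, 9.31 in T9 and 9.25 in OG2, a log2 difference (T9 minus E3) of 4.26 with a bead SE of 0.14. Klf2, a Kruppel-like factor, had levels of 7.79, 9.41 and 11.78, and Klf5, of the same family, 7.55, 8.71 and 11.69. For Klf2 and Klf5 both EpiSC lines lay below OG2, T9 less far. Dppa5a, an RNA-binding protein of ESCs, was low in E3 (8.32), higher in T9 (10.25) and highest in OG2 (14.50), and its other probe differed by -1.65.

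Nr5a2, an orphan nuclear receptor that can drive Pou5f1 transcription, was detected in T9 alone of the EpiSC lines. Its level was 4.22 in E3, 8.64 in T9 and 8.41 in OG2, so it was at least 13.7-fold higher in T9, and a second probe was also detected in T9 only. Esrrb and Zfp42 did not follow Gbx2 and Nr5a2 up to the level of the ESC line. Esrrb, another orphan receptor, was at 5.46 and 6.46 in the EpiSC lines and at 12.54 in OG2. Zfp42, the classical ESC marker also called Rex1, was at 5.13 and 5.84 against 11.43. In the opposite direction, Fgf4, a growth factor of the inner cell mass, was detected in E3 (6.03) and OG2 (7.61) and not in T9 (4.33), at least 2.38-fold. Tfap2c, a factor of trophoblast, germ cells and the naive state, was 5.35-fold higher in T9 (6.63 in E3, 9.05 in T9, 10.50 in OG2), and its other probes differed by -2.94 and -0.82. Dnmt3l, the cofactor of the de novo methyltransferases, was 4.18-fold higher in T9 (6.23, 8.29 and 11.51), opposite to Dnmt3b.

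Many genes of the primitive streak and its derivatives were higher in T9. Of 34 measured members, 15 were detected in both lines, and of these 8 were 2-fold higher in T9, 0 were 2-fold higher in E3, and the median was -1.02. A further 18 members were detected in T9 alone and 1, Kdr, in E3 alone. Fst, a secreted inhibitor of Activin and BMP and a Wnt-responsive gene, had a level of 5.96 in E3, 9.81 in T9 and 5.40 in OG2 (14.4-fold). Fgf8, an FGF ligand of the streak, had 8.04, 10.13 and 4.25 (4.25-fold). Chrd, the BMP antagonist chordin made by the organizer, had 5.10, 6.72 and 4.55 (3.07-fold). In all 3 cases E3 was nearer to OG2 than T9 was.

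Among the streak genes detected in T9 alone were transcription factors of several germ layers. Mesp1, a regulator of early cardiac mesoderm, had levels of 4.18 in E3 and 6.18 in T9 (at least 2.49-fold). Foxa2, a factor of axial mesoderm and endoderm, had 4.59 and 6.27 (at least 2.64-fold). Isl1, a LIM homeobox factor of cardiac and lateral mesoderm, had 4.54 and 7.31 (at least 5.46-fold). Hoxb1, an early Hox gene of the posterior embryo, had 4.18 and 6.35 (at least 2.80-fold), and its second probe was likewise detected in T9 only. Eomes (4.86 in E3, 5.58 in T9) and Mixl1 (4.33 and 5.11), both streak factors, were detected in T9 alone but stayed dim and below 2-fold. Gsc, the organizer homeobox gene, was detected in both lines at 6.34 and 7.27, a difference below 2-fold. Of 6 endoderm markers, 1 was detected in E3 and 3 in T9. Gata6 was detected in both and differed by 0.19, Foxa2 and Sox17 (4.70 in E3, 5.53 in T9) were detected in T9 alone, and Gata4, Afp and Ttr in neither line. In a wider list of extraembryonic endoderm genes, 15 were detected in both lines, 4 in E3 alone and 4 in T9 alone. Of the 15, 1 was 2-fold higher in E3 and 1 in T9, with a median of -0.15. Nothing is read from these counts of 1.

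Genes known to respond to Wnt signalling lay on the same side, in a list that shares Bmp4, Cdx2 and Cyp26a1 with the streak list. Of 9 detected in both lines, 5 were 2-fold higher in T9 and 0 in E3, with a median of -1.03, and 5 more were detected in T9 alone. Sp5, a zinc finger factor that is a direct target of beta-catenin, showed the largest difference of any gene detected in both lines. Its level was 5.13 in E3, 9.69 in T9 and 5.83 in OG2, 23.6-fold higher in T9 (log2 difference T9 minus E3 of 4.56, bead SE 0.15). The widely used Wnt readout Axin2, a negative regulator of the pathway, differed less, at 6.17 in E3 and 7.19 in T9 (2.04-fold), with 6.40 in OG2. Lef1, a DNA-binding partner of beta-catenin, had 4.91, 6.28 and 4.36 (2.59-fold). Tnfrsf19, a receptor of the TNF family, had 5.49, 7.05 and 5.74 (2.96-fold). OG2, which was cultured with a GSK3 inhibitor, lay closer to E3 than to T9 for Sp5, Axin2, Lef1 and Tnfrsf19.

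The machinery of the pathway was not shifted as a whole. Of 22 Wnt components detected in both lines, 3 were 2-fold higher in T9 and 0 in E3, and the median was 0.07, a value that changed sign under 1 of the other processing settings. The 3 were a ligand, a receptor and a secreted modulator. Wnt8a, a streak-stage ligand, had levels of 6.33 in E3, 9.13 in T9 and 4.51 in OG2 (6.99-fold), and its other probes differed by -2.68 and -1.87. Fzd10, a Frizzled receptor, had 5.75, 8.27 and 6.86 (5.73-fold) and all 3 of its probes were higher in T9. Sfrp1, a secreted Wnt-binding protein, had 6.20, 8.72 and 7.76 (5.73-fold). Rspo3, a secreted enhancer of Wnt signalling, was detected in T9 alone (4.59 in E3, 7.47 in T9, at least 6.06-fold), as was Wnt5a (4.43 and 6.73, at least 3.64-fold, though its other probe differed by -0.66). By contrast the shared transducers differed little, with Ctnnb1, beta-catenin itself, at -0.19 (0.11 by its other probe), Gsk3b at 0.22 and Apc at 0.43 (E3 minus T9).

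The promoter of Sp5 is shown because this gene differed most among those detected in both lines and its promoter holds the letters CTTTGAT, the core site of the TCF/LEF factors, which are in capitals here. Sequences are from RefSeq (build GRCm38.p6), 250 bases before to 50 after the annotated start, 5′ to 3′ on the gene's strand.
Sp5 (chr2:70474673-70474972, plus strand): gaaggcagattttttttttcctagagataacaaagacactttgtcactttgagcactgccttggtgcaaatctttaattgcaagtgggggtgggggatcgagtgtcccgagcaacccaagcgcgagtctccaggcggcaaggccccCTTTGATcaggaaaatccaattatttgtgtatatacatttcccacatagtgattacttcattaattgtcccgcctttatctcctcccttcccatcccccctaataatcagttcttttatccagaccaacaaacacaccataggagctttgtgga
The match starts 104 bases before the start site. Both strands were searched. The letters were present in 2 of 16 promoters of the measured Wnt-responsive genes (12.5%, those of Sp5 and Tnfrsf19) and in 3.73% of all 32851 promoters of the table. They were in 11 of 295 promoters of genes 2-fold higher in T9 (3.73%), the share over the whole table, and in 2.53% of those of measured genes. Among Wnt-responsive genes detected in both lines and with a promoter in the table, 2 of 2 with the letters and 2 of 4 without them were 2-fold higher in T9. A match describes the letters of the window and is not evidence that a factor binds there.

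Nodal signalling genes were mostly alike, with 2 of 20 members detected in both lines 2-fold higher in T9, 0 in E3, and a median of -0.11. Over all genes detected in both lines the shares were 2.68% and 2.28%. The largest difference in this list was that of Fst, already given with the streak genes. The ligand Nodal was nearly level, with 9.24 in E3 and 9.36 in T9 beside 9.32 in the ESC line. Its feedback inhibitors parted. Lefty2, a streak-stage antagonist of Nodal, had levels of 8.29, 10.92 and 8.79, 6.21-fold higher in T9, while Lefty1, its neighbour gene and close relative, had 12.04, 11.84 and 8.08 and did not differ by more than 0.20. Lefty1 and Lefty2 are similar in sequence, so cross-hybridisation between their probes was not checked. BMP pathway genes showed 3 of 14 detected in both lines 2-fold higher in T9, 0 in E3, and a median of -0.51, beside the same shares over all genes. Id1, an inhibitor of basic helix-loop-helix factors induced by BMP, had 4.99 in E3, 7.21 in T9 and 6.74 in OG2 (4.66-fold), and Id3, of the same family, 5.10, 6.39 and 4.79 (2.45-fold). The receptor Bmpr1a and the transducer Smad1 differed by 0.16 (-0.23 by the other probe of Bmpr1a) and 0.12.

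Both lines received the same dose of FGF2. Of 23 FGF and ERK genes detected in both lines, 6 were 2-fold higher in T9 and 0 in E3 (median -0.56). Over all genes detected in both lines the shares were 2.68% and 2.28%. Dusp6, a phosphatase induced by ERK that shuts ERK off, had a level of 9.58 in E3, 11.26 in T9 and 9.66 in OG2 (3.21-fold), and its other probes differed by -1.26 and -1.30. Fgfbp1, a carrier that releases FGFs from the matrix, had 4.98, 7.02 and 7.27 (4.12-fold). Fos, an immediate early transcription factor, had 9.24, 10.34 and 5.11 (2.15-fold). Other ERK-responsive genes were nearly level, with differences of 0.17 for Spry4, -0.12 for Egr1 and 0.37 for Etv4. Egr1 and Fos therefore differed in size although both are immediate early genes.

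Across 22 immediate early and related genes detected in both lines, 6 were 2-fold higher in T9 and 0 in E3, with a median of -0.58. Junb, a component of AP-1, had levels of 7.09 in E3, 8.70 in T9 and 7.30 in OG2 (3.05-fold). Ccn1, a secreted matrix-associated protein induced by serum and by YAP, had 7.39, 9.10 and 6.69 (3.26-fold), and Ccn2, its relative, 10.41, 11.47 and 11.11 (2.08-fold). The list of YAP and SRF targets, which shares Ccn1 and Ccn2, had 5 of 18 higher in T9, 0 in E3 and a median of -0.48. Acta2, smooth muscle actin, had 7.24 in E3, 9.35 in T9 and 11.34 in OG2 (4.33-fold), and all 4 of its probes were higher in T9. Collection at subconfluence was stated for both lines, and cell density itself was not measured.

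**Figure D3:**
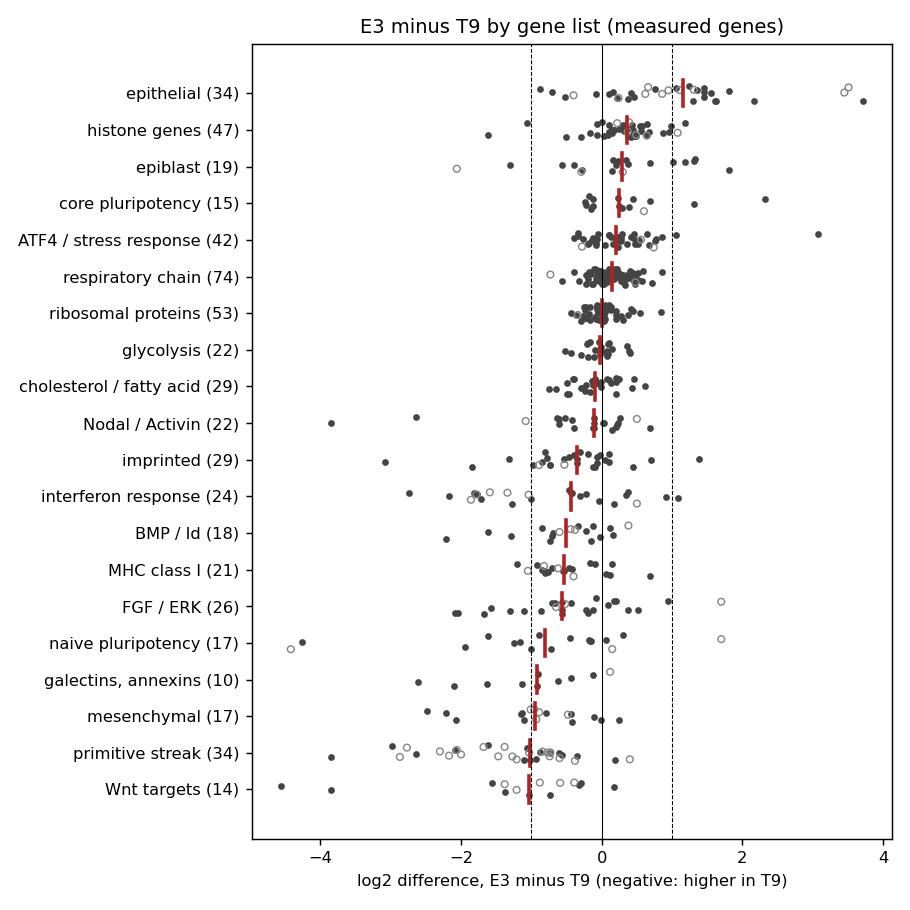
Difference E3 minus T9 (log2, horizontal axis) of every measured member of 20 gene lists and families (vertical axis, number of measured genes in brackets). Filled points are genes detected in both lines, open points genes detected in 1, red bars the median of the filled points and dashed lines 2-fold; the medians run from 1.15 for epithelial genes to -1.03 for Wnt targets, while ribosomal, glycolytic and respiratory genes stay close to 0.

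Epithelial genes had the largest list median towards E3 among the lists and families described. Of 34 measured members, 24 were detected in both lines, and of these 13 were 2-fold higher in E3, 0 in T9, and the median difference was 1.15. A further 9 were detected in E3 alone and 1, Fermt1, in T9 alone. Espn, espin, an actin-bundling protein of microvilli, had a level of 9.57 in E3, 5.85 in T9 and 5.26 in OG2, 13.2-fold higher in E3 (log2 difference 3.72, bead SE 0.12), and its other probe differed by 1.97. Cdh1, E-cadherin, the adhesion molecule of the epiblast sheet, had 8.78, 7.22 and 8.49 (2.94-fold). Esrp1, a splicing regulator that sets epithelial exon choice, had 9.03, 7.57 and 5.35 (2.75-fold). E3 was the higher line at Espn, Cdh1 and Esrp1, but OG2 was near E3 only at Cdh1.

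Tight junction proteins took part. Cldn6, a claudin of embryonic epithelium, had levels of 10.81 in E3, 8.64 in T9 and 7.30 in OG2 (4.51-fold). Cldn3 had 7.43, 5.80 and 4.49 (3.10-fold), and Cldn4 had 9.14, 8.07 and 10.59 (2.09-fold). Not all claudins went this way, since Cldn12 was higher in T9 at 6.86 in E3 and 8.34 in T9 (log2 difference T9 minus E3 of 1.48). Tjp3, a scaffold of tight junctions, was higher in E3 by both its probes (1.46 and 1.75). F11r, a junctional adhesion molecule, was 2.46-fold higher and Marveld3, a junctional membrane protein, 2.75-fold higher in E3, the other probe of Marveld3 differing by 0.52.

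Regulators and proteases of epithelia were also higher in E3. Grhl2, a grainyhead factor that activates epithelial genes, had 6.83 in E3, 5.02 in T9 and 7.35 in OG2 (3.50-fold). St14, the membrane protease matriptase, had 6.87, 5.26 and 7.50 (3.05-fold), and Prss8, the protease prostasin, had 7.88, 6.51 and 5.99 (2.57-fold). The other probe differed by 1.01 for Prss8 and by 0.94 for St14. Llgl2, a polarity protein, was 2.36-fold higher in E3. Simple epithelial keratins were split in direction, because Krt18 differed by 0.76, Krt8 by -0.70 and Krt19 by -0.87 (E3 minus T9), all below 2-fold.

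Among the epithelial genes detected in E3 alone, Rab25 and Ap1m2 were the brightest. Rab25, a GTPase of epithelial membrane recycling, had a level of 8.05 in E3, 4.60 in T9 and 4.28 in OG2 (at least 9.64-fold). Ap1m2, the epithelial subunit of an adaptor complex that sorts proteins to the basolateral membrane, had 8.04, 4.53 and 6.35 (at least 9.57-fold), and its 3 other probes were also detected in E3 alone of the EpiSC lines. In the large families to which they belong, 0 of 39 Rab GTPases and 0 of 19 adaptor complex subunits detected in both lines were 2-fold apart. The share over all genes detected in both lines was 4.96%, so counts of 0 in families of this size are near it and are not read. The family medians were -0.03 and -0.11. With genes detected in 1 line included, 2 of 43 Rab GTPases and 1 of 22 adaptor subunits were 2-fold higher in E3.

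Mesenchymal genes showed the opposite order. Of 12 detected in both lines, 6 were 2-fold higher in T9, 0 in E3, and the median was -0.95, with 5 more detected in T9 alone. Vim, the intermediate filament vimentin, had a level of 8.44 in E3, 10.93 in T9 and 10.27 in OG2 (5.63-fold). Zeb1, a repressor of epithelial genes, had 5.84, 8.06 and 7.70 (4.67-fold). Tgfbi, a secreted matrix protein, had 5.36, 7.43 and 5.93 (4.20-fold). Snai1, the repressor of Cdh1 in gastrulation, was dim at 4.92 in E3 and 6.04 in T9 (2.16-fold, bead SE 0.24 on the log2 scale). Snai1 is also in the streak list. For Vim and Zeb1 the OG2 level lay near T9, so the order of the lines was not that of EpiSC against ESC.

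Fibroblast genes bear on these values because both EpiSC lines grew on feeders. Of 16 genes of a wider fibroblast list detected in both lines, 3 were 2-fold higher in T9, 1 in E3, and the median was -0.66. Thy1, a surface protein of fibroblasts and other cells, was higher in E3 at 7.77 against 5.74 in T9, and Dcn, decorin, was at 6.49 in E3 and 5.79 in T9. Col1a1 was detected in T9 (5.16) and OG2 (6.39) and not in E3 (4.63). The part of feeder RNA in the mesenchymal values was not tested, and fewer cells of a type cannot be told apart from less RNA per cell in RNA of whole cultures.

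**Figure D4:**
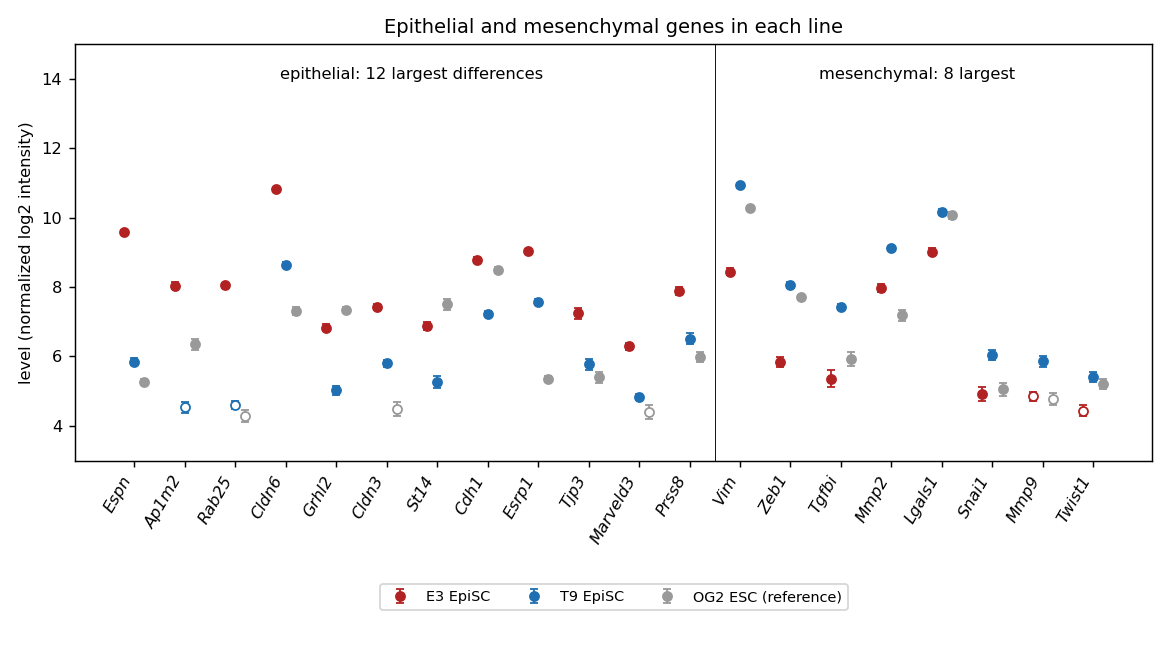
Level (normalized log2 intensity, vertical axis) of the 12 epithelial and 8 mesenchymal genes with the largest differences in E3 (red), T9 (blue) and OG2 (grey). Bars are bead standard errors of 1 array, and open circles mark arrays on which no measured probe of the gene was detected. Epithelial genes were picked as the largest differences towards E3 and mesenchymal genes as the largest towards T9, so these directions follow from the choice. The epithelial differences run from 1.36 for Prss8 to 3.72 for Espn, and OG2 lies on either side.

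Promoters of Rab25, Ap1m2 and Cldn6 are shown because these epithelial genes were among the most different and hold the E-box CACCTG, the letters bound by the Snail and Zeb repressors. Capitals mark each match on either strand, so that CAGGTG is the same box read from the other strand. The sequences are from RefSeq (build GRCm38.p6), 5′ to 3′ on the strand of each gene.
Rab25 (chr3:88548230-88548529, minus strand): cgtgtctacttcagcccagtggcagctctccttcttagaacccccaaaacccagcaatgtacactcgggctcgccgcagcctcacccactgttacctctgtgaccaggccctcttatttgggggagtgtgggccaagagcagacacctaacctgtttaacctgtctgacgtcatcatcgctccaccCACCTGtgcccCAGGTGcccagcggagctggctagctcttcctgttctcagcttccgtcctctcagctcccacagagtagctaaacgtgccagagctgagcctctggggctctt
Ap1m2 (chr9:21312284-21312583, minus strand): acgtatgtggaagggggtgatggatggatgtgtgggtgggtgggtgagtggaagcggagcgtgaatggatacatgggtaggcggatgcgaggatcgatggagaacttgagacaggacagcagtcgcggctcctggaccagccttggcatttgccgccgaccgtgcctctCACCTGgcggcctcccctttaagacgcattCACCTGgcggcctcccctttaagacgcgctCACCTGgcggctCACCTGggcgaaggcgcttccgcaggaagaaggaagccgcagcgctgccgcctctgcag
Cldn6 (chr17:23679115-23679414, plus strand): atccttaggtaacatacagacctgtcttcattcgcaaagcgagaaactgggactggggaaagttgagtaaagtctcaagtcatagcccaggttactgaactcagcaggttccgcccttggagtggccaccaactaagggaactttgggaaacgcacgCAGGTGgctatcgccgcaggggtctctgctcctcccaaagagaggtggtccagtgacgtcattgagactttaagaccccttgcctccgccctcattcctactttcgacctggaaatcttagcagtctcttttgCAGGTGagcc
Ap1m2 held 4 matches, from 81 to 9 bases before the start, Rab25 held 2, and Cldn6 held 2. The box was found in 16 of 29 promoters of measured epithelial genes (55.2%), in 20.2% of all promoters of the table and in 18.6% of those of measured genes. Among genes 2-fold higher in E3 it was in 72 of 219 promoters (32.9%) and among those 2-fold higher in T9 in 54 of 295 (18.3%). Among epithelial genes detected in both lines, 5 of 10 with the box and 1 of 4 without it were 2-fold higher in E3, with medians of 0.91 and 0.42, and with so few genes no difference between these groups is read. The grainyhead letters AACCGGTT were in 0 of the 29 epithelial promoters, which says only that they are not in these windows. These shares are descriptions with no test.

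Interferon response genes were higher in T9, in untreated cells of both lines. Of 24 measured, 18 were detected in both lines, 7 of these were 2-fold higher in T9, 1 in E3, and the median was -0.43. A further 5 were detected in T9 alone. Ifi27, an interferon-induced membrane protein, had a level of 5.12 in E3, 7.86 in T9 and 5.78 in OG2 (6.70-fold, bead SE 0.18 on the log2 scale), and its other probe differed by -2.46. Ifitm3, a membrane protein that restricts viral entry and also marks early germ cells, had 9.73, 11.89 and 11.56 (4.49-fold). Gbp2, a guanylate-binding protein induced by interferon gamma, had 8.67, 10.49 and 5.66 (3.52-fold), and its other probe, not detected in E3, differed by -0.90. OG2 was close to T9 for Ifitm3 and below both EpiSC lines for Gbp2, so the reference line did not sort the list to one side.

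Irf1, the transcription factor that carries the interferon gamma response, had 9.37 in E3, 10.64 in T9 and 7.95 in OG2 (2.41-fold), and its 4 other probes were all higher in T9, by log2 differences (E3 minus T9) of -1.10 to -1.51. Igtp, an immunity-related GTPase, had 5.55, 7.26 and 4.54 (3.26-fold), and Oasl2, of the oligoadenylate synthetase family, 5.18, 6.95 and 4.21 (3.42-fold). Isg15, a ubiquitin-like protein, was detected in T9 alone (4.55 in E3, 6.33 in T9, at least 2.76-fold), as were Gbp3 (at least 3.54-fold) and Usp18, the protease that removes Isg15 from its targets (4.23 and 5.57). Not every member lay on this side. Ifit2, an interferon-induced RNA-binding protein, was higher in E3 (5.92 against 4.84, 2.11-fold), but its other probe differed by only 0.37. The transducers Stat2 and Irf9 differed by -0.04 and -0.44 (-0.04 by the other probe of Irf9) and the receptor chain Ifngr1 by -0.22.

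Genes of antigen presentation lay mostly on the same side at smaller size. Of 17 detected in both lines, 13 had a higher level in T9. The median was -0.53, against 0.02 over all genes detected in both lines. In T9, 1 gene was 2-fold higher. That gene was Tapbp, tapasin, which loads peptides onto class I molecules, with levels of 5.60, 6.81 and 5.14 (2.31-fold). B2m, the light chain of class I molecules, had 8.79, 9.71 and 8.86 (1.89-fold) and its other probe differed by -0.89. H2-K1, a classical heavy chain, had 5.79, 6.64 and 4.50 (1.81-fold). H2-Bl went the other way at 9.41 in E3 and 8.72 in T9. Heavy chain genes are highly polymorphic between mouse strains and near-identical to each other, and probe sequences were not available here to check for either, so H2 values carry that uncertainty between a hybrid and a 129 line.

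**Figure D5:**
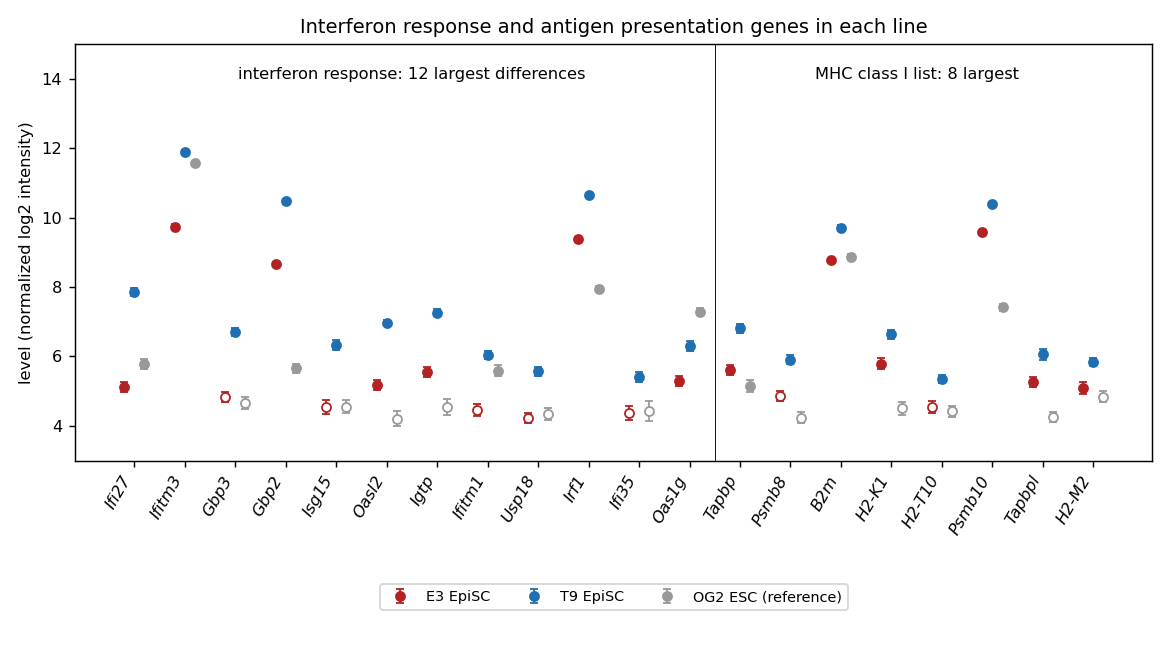
Level (normalized log2 intensity, vertical axis) of the 12 interferon response and 8 antigen presentation genes with the largest differences towards T9, in E3 (red), T9 (blue) and OG2 (grey). Bars are bead standard errors of 1 array, and open circles mark arrays on which no measured probe of the gene was detected. T9 is above E3 at every gene shown because the genes were picked in that direction, from a log2 difference of 2.74 for Ifi27 downwards. OG2 is above T9 only at Oas1g.

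The promoters of Isg15 and Gbp2 are shown because they carry GAAA, any 2 bases and GAAA again, the letters of the interferon-stimulated response element that IRF and STAT factors bind, here in capitals on either strand (overlapping matches in Isg15 run together). The sequences are from RefSeq (build GRCm38.p6), 5′ to 3′ on the strand of each gene.
Isg15 (chr4:156200769-156201068, minus strand): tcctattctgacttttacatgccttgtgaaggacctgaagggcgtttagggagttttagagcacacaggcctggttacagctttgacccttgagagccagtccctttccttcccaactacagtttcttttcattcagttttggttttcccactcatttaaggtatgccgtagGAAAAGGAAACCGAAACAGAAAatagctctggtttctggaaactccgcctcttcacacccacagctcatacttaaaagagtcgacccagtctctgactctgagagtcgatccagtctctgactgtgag
Gbp2 (chr3:142620413-142620712, plus strand): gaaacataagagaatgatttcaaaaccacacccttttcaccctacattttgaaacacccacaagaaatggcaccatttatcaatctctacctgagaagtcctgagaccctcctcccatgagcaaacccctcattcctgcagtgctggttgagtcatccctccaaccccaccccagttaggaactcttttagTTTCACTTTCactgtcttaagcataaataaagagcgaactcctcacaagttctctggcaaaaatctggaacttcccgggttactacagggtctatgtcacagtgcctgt
Isg15 held 3 overlapping matches, the first 78 bases before the start, and Gbp2 held 1 at 59 bases before it. The element was found in 11 of 24 promoters of measured interferon genes (45.8%) and in 3.44% of all promoters of the table. It was in 20 of 295 promoters of genes 2-fold higher in T9 (6.78%), in 2 of 219 of those 2-fold higher in E3 (0.913%) and in 2.77% of those of measured genes. Among interferon genes detected in both lines, 4 of 9 with the element and 2 of 7 without it were 2-fold higher in T9, with medians of -0.46 and -0.22, and no difference between these small groups is read. This motif was added after the interferon values had been seen.

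Retinoid and patterning genes of the nervous system were also mostly higher in T9, in a list that shares Meis2 with the primitive streak list. Of 11 detected in both lines, 5 were 2-fold higher in T9 and 0 in E3, the median was -0.91, and 8 more were detected in T9 alone against 2 in E3 alone. Meis2, a homeobox cofactor of Hox proteins, had a level of 5.57 in E3, 8.56 in T9 and 7.98 in OG2 (7.92-fold). Irx3, an Iroquois factor of neural patterning, had 5.43, 7.91 and 5.16 (5.58-fold), and Sox21, a SoxB2 factor, 5.41, 7.90 and 7.60 (5.63-fold, though its other probe differed by -0.84). The retinoic acid carriers Crabp2 (5.24 in E3, 6.81 in T9) and Crabp1 (5.64 and 7.06) were 2.95-fold and 2.68-fold higher in T9. Rarb, a retinoic acid receptor and a known retinoid target, was instead detected in E3 alone (5.43, against 4.39 in T9), with 0.16 by its other probe.

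Galectins and annexins were lower in E3. In these families, 9 of 9 genes detected in both lines had the higher level in T9, 4 of them by 2-fold, with a median of -0.92. The median over all genes detected in both lines was 0.02. Lgals3, galectin-3, which binds sugars at the cell surface, had 5.95 in E3, 8.56 in T9 and 9.42 in OG2 (6.08-fold). Anxa5, an annexin that binds phosphatidylserine, had 7.68, 9.78 and 7.73 (4.29-fold). Anxa3 had 7.93, 9.56 and 10.07 (3.10-fold), and its other probe differed by -1.60. In the S100 family of calcium sensors, 2 of 6 genes were 2-fold higher in T9, namely S100a11 (10.03 in E3, 11.67 in T9) and S100a10 (8.0 and 9.08), while S100a1 was higher in E3 at a difference of 0.92. With so few genes, nothing is read from this family.

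Of 28 growth factors, their binding proteins and surface receptors detected in both lines, 5 were 2-fold higher in T9 and 2 in E3, with a median of -0.21. Over all genes detected in both lines the shares were 2.68% and 2.28%. A further 7 members of the list were detected in T9 alone and 1 in E3 alone. Igf2, the imprinted insulin-like growth factor, had a level of 7.13 in E3, 10.21 in T9 and 9.34 in OG2 (8.46-fold, bead SE 0.08 on the log2 scale). Igfbp4 (6.60 in E3, 8.40 in T9) and Igfbp5 (7.82 and 9.09), which bind insulin-like growth factors, were 3.48-fold and 2.41-fold higher in T9. Ptn, pleiotrophin, a heparin-binding growth factor, had 5.29, 7.92 and 4.22 in E3, T9 and OG2 (6.21-fold). In the other direction Cxcl12, a chemokine, had 8.92 in E3, 7.06 in T9 and 4.83 in OG2 (3.63-fold, but 0.78 and 0.66 by its other probes), while its receptor Cxcr4 was detected in T9 alone (4.51 in E3, 5.67 in T9).

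Igf2 belongs to the imprinted genes, whose expression depends on the parent of origin. Of 27 imprinted genes detected in both lines, 21 had the higher level in T9, 3 of them by 2-fold. In E3, 1 gene was 2-fold higher, and the median was -0.35. Over all genes detected in both lines the median was 0.02, and 2.68% were 2-fold higher in T9 and 2.28% in E3. Cdkn1c, a cell cycle inhibitor expressed from the maternal allele, had 9.15 in E3, 10.47 in T9 and 7.07 in OG2 (2.50-fold). Phlda2, its neighbour in the same imprinted cluster and also maternally expressed, went the opposite way at 9.45, 8.06 and 7.10 (2.62-fold higher in E3). The paternally expressed Dlk1 and Peg3 each differed by -0.74.

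Sex-linked genes separated the lines. Eif2s3y, a translation factor gene of chromosome Y, had a level of 8.45 in E3, 4.21 in T9 and 8.22 in OG2, at least 12.7-fold higher in E3. Kdm5d, a Y-linked histone demethylase, was at 4.89 in E3, at the detection limit, and not detected in T9 (4.19). Xist, the RNA that coats an inactive X chromosome, was detected in T9 alone (4.22, 7.65 and 4.40, at least 6.91-fold), with a second probe on the same side. The 234 genes of the X chromosome detected in both lines had a median difference of -0.062, outside the range of the 19 autosomes (-0.012 to 0.095), and 6.44% of 264 measured X genes were 2-fold apart against 4.56% to 8.03% on the autosomes. Map7d3, an X-linked microtubule-associated protein gene, was 6.21-fold higher in E3 (7.54 against 4.91), and Erdr1, placed on X by the gene table, 13.6-fold higher in T9 (7.64 against 11.40).

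Some of the sharpest differences towards E3 concerned 1 member of a complex or group whose other members stayed below 2-fold. Cops8, a subunit of the COP9 signalosome that removes NEDD8 from cullins, had a level of 8.77 in E3, 4.90 in T9 and 4.67 in OG2 (14.7-fold, log2 difference 3.88, bead SE 0.20), whereas the 9 signalosome genes had a median of 0 and Cops8 alone passed 2-fold. Tomm22, the central receptor of the mitochondrial outer membrane import complex, had 9.07, 5.35 and 9.04 (13.1-fold), and of the 16 mitochondrial import genes it alone passed 2-fold. Pclaf, a PCNA-binding factor of DNA replication, had 9.05, 5.78 and 5.78 (9.64-fold), while no other of 37 S and G2/M phase genes detected in both lines passed 2-fold. Over all genes detected in both lines 4.96% were 2-fold apart, so few would pass in groups of this size. Cops8, Tomm22 and Pclaf each rest on 1 probe, and whether sequence variants between strains lie under these probes was not tested, since the probe sequences were not used here.

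Atf4, the transcription factor of the integrated stress response, had a level of 9.88 in E3, 6.80 in T9 and 9.76 in OG2 (8.44-fold, log2 difference 3.08, bead SE 0.13) on 1 probe, under which strain variants were likewise not tested for. Other genes of the response differed less. Of 39 genes of the response detected in both lines, Atf4 itself and Cth, an enzyme of cysteine synthesis (8.06 in E3, 7.01 in T9, 2.07-fold), were 2-fold higher in E3, 0 were in T9, and the median was 0.21. Aminoacyl-tRNA synthetases, many of which Atf4 is known to induce, had 0 of 25 members 2-fold apart and a median of 0.23. The share 2-fold apart over all genes detected in both lines was 4.96%, and 0 of 25 is near it. The letters TGATGNAA, the C/EBP-ATF site, were in 14 of 42 promoters of the list (33.3%). They were in 3.97% of all promoters of the table and in 2.22% of those of measured genes. Among genes of the list detected in both lines and with a promoter in the table, 0 of 13 with these letters and 1 of 18 without them were 2-fold higher in E3. That gene was Atf4 itself, and the median was 0.19 in each group.

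The remaining large differences towards E3 were single genes of varied function. Uap1, an enzyme of amino sugar synthesis (8.27 in E3, 6.17 in T9), was 4.28-fold higher. Fabp3, a fatty acid carrier, was 4.02-fold higher in E3 (9.69 against 7.68), with 13.22 in OG2. Cdc42ep3, a Cdc42 effector, was 4.31-fold higher (7.59 and 5.48), Gpn2, a GTPase, 4.04-fold (8.46 and 6.44), and Lrrn1, a leucine-rich repeat membrane protein, 3.90-fold (7.41 and 5.45). Mapk13, a p38 kinase of epithelia, was 3.84-fold higher (7.51 and 5.57). Tmem102 was 3.90-fold higher by the probe used, but its other probe differed by only 0.23. Detected in E3 alone were Twistnb, Slitrk5, the sperm lactate dehydrogenase Ldhc, the lysosomal protease Ctsc and the BH3-only protein Pmaip1, at least 4.36-fold to 6.38-fold higher, and the 2 other probes of Ctsc were on the same side.

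Towards T9, Gpx3, a secreted glutathione peroxidase, had 5.67 in E3, 8.34 in T9 and 7.31 in OG2 (6.36-fold). Gstm5 (8.25 in E3, 9.69 in T9) and Gstp1 (10.10 and 11.16, with -0.97 by its other probe), enzymes of glutathione conjugation, were 2.71-fold and 2.08-fold higher in T9, while Gclm, a subunit of the enzyme that makes glutathione, was 2.20-fold higher in E3 (9.78 against 8.64). Detected in T9 alone were Nckap1l, the haematopoietic subunit of the WAVE actin regulator (4.29 in E3, 8.93 in T9, at least 16.7-fold), the cardiac actin Actc1 (at least 7.19-fold, though its other probe differed by -0.56), the ciliary tektin Tekt1 (at least 6.16-fold) and Ccno, a cyclin of multiciliated cells (at least 5.50-fold).

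Large housekeeping systems had medians close to 0. Of 52 ribosomal protein genes, 72 respiratory chain genes, 22 glycolytic genes and 29 genes of cholesterol and fatty acid synthesis detected in both lines, 0 were 2-fold apart in either direction, with medians of 0, 0.14, -0.02 and -0.10. The glycolysis median changed sign under 1 of the other processing settings. Splicing factors of the SR and hnRNP families had 0 of 30 members 2-fold apart and a median of -0.07. Over all genes detected in both lines the share 2-fold apart was 4.96%, so few such genes would fall in systems of this size. The counts of 0 are therefore not read apart from the medians. Histone genes leaned towards E3, with 34 of 41 above 0 and a median of 0.36, although 1 was 2-fold higher in E3 and 2 were in T9. The median over all genes detected in both lines was 0.02. Histone genes are near-identical copies, and their probes may read several genes.

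The level of OG2 was near E3 for some of these genes and near T9 for others. Of the 209 genes 2-fold higher in E3, OG2 was within 2-fold of E3 only for 49 and of T9 only for 88. Of the 294 genes 2-fold higher in T9, it was within 2-fold of E3 only for 131 and of T9 only for 51. OG2 was within 2-fold of both lines for 39 and 43 of these genes and of neither for 33 and 69. These sets include genes detected in 1 EpiSC line only. Among the genes detected in both lines, OG2 was within 2-fold of E3 only for 39 and of T9 only for 63 of the 162 higher in E3. It was within 2-fold of E3 only for 66 and of T9 only for 36 of the 190 higher in T9.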

How the data were processed

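Per the labels' protocols, column-purified, DNase-treated total RNA (400 ng a line) was amplified by in vitro transcription for 12 h and put on 1 Illumina bead array for each of E3, T9 and OG2. Groups came from the sample titles. The scanner tables the authors deposited hold, per the file headers, a linear signal intensity per probe, its standard error over beads and a detection p-value. The intensity values deposited were neither background-subtracted (lowest 70.5 in E3, 66.7 in T9 and 69.3 in OG2) nor normalized between arrays. The deposited detection p-value moves in steps of 1 in 798. BeadStudio is named in the submitters' processing notes (version and build not given in the sources used here). A further deposited table holds the authors' processed intensity, which is linear. It was blank for 12906, 12904 and 12900 of 25697 probes in E3, T9 and OG2, and the other cells had medians of 80.97, 80.79 and 80.78. Blank cells were set to the lowest value of the array. This table was used as an alternative only (normalization not given in the sources used here).

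Signals were background-corrected with nec of limma 3.58.1 in R 4.3.3 (offset 16), taken to log2 and quantile normalized over the 3 arrays. An offset draws the log2 differences of dim probes towards 0. Probes took gene symbols from the platform's probe table (23978 of 25697 had 1 symbol, 1719 none), and a gene was represented by its measured probe with the highest mean level in E3 and T9. The detection limit of 0.01 had its nearest values at 0.008772 inside (signals of 95.5 to 95.6 in E3 and 93.6 to 93.7 in T9) and at 0.01002 outside (95.1 to 95.5 and 93.4 to 93.6). E3 had 10791 detected probes and T9 11171, with a median bead standard error of 4.18% and 4.17% of the signal. The number of arrays limits precision, and 1 array per line allows no test. The gene lists (40 lists and 33 families by name) and the members were chosen with earlier results of these data known. Some lists share members, so their counts are not independent of each other. Genes named were, for each line, the 16 with the largest differences of those detected on both arrays, the 8 brightest detected in that line alone, and members of lists. The steps were also run on a simulated pair of arrays with bead error only. Known changes were placed on bright probes detected on both arrays. The simulation therefore says nothing of dim probes, of genes detected in 1 line or of repeat cultures. Alternatives covered background, normalization, offset, detection limit, probe choice, the bead interval and the authors' table.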

Additional observations from a re-analysis of the deposited data

How the results depend on the processing

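No paired analysis was possible because each line has 1 array. Genes 2-fold higher in E3 and in T9 numbered 209 and 294 as reported. They numbered 94 and 154 with an offset of 50, 443 and 571 with an offset of 4, 56 and 107 without background correction, and 588 and 684 in the authors' table. They were 161 and 189 when a single probe of the gene had to be detected on both arrays (162 and 190 when different probes of a gene could supply the detection), 19 and 29 when every probe of a gene with several had to pass, and 108 and 169 at the near end of the 95% bead interval. The last of these, the bound on the dim side (192 and 244) and the rule on several probes were chosen after seeing the data. Normalization of the pair alone (212 and 296), median scaling (194 and 320), cyclic loess (200 and 310), a detection limit of 0.05 (209 and 294) and the median of a gene's probes (194 and 276) stayed within 1.5 times. A larger offset shrinks log2 differences of dim probes by construction, fewer genes or a stricter rule lower the other counts by construction, and for the authors' table and the missing background correction the cause was not tested. Among the 48 genes named for a large difference or as the brightest of 1 line, 0 of the differences reversed under any setting. They were chosen on these same arrays, so a reversal was unlikely by construction. Their sizes did change, with Sp5 running from -5.26 to -3.15 and Eif2s3y from 2.39 to 5.69. Tmem102 fell below 2-fold at its lowest value (0.94). Genes named only as members of lists were not in this check. Of 67 list medians 13 took both signs across the settings, none of them over 0.12 in size as reported. The share of calls that were higher in E3 ran from 34.4% without background correction to 46.2% in the authors' table (41.6% as reported). The epithelial median ran from 0.65 to 1.18, the primitive streak median from -1.37 to -0.53 and the interferon median from -0.55 to -0.21.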

Other observations

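Values of some gene families not described above follow. In the Kruppel-like and Sp family, 4 of 10 genes detected in both lines were 2-fold higher in T9 and 1 in E3. Klf3, a repressor of this family, had a level of 5.02 in E3, 6.72 in T9 and 7.98 in OG2, while Klf9, a hormone-responsive member, had 10.71, 9.27 and 11.48 and was 2.71-fold higher in E3. Cell cycle regulators of G1 had 3 of 23 members 2-fold higher in T9 and 0 in E3, among them Ccnd2, cyclin D2 (6.92 in E3, 8.33 in T9), and Cdkn1a, the inhibitor p21 (8.54 and 9.55, with -1.02 and -0.60 by its other probes). Over all genes detected in both lines the shares were 2.68% and 2.28%, and with 3 genes nothing is read from the G1 list. In the Notch list 1 of 13 genes passed 2-fold, Dtx1, a ubiquitin ligase of the pathway, at 6.80 in E3 and 5.40 in T9, and with 1 gene nothing is read from this list. Among germline genes, Dnd1, an RNA-binding protein of germ cells, had 6.99 in E3, 8.49 in T9 and 6.53 in OG2. Among 142 zinc finger genes named Zfp and detected in both lines, 3 were 2-fold higher in E3 and 5 in T9, with a median of 0.06, a share near that of all genes.

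Tomm22 and Atf4, both far higher in E3 and both on 1 probe, lie near each other on chromosome 15. The 10 measured genes between them differed by -0.71 to 0.67.

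Of 664 measured probes with no gene name, 21 were 2-fold higher in E3 and 24 in T9. The largest difference of any probe was among them, at a level of 4.76 in E3, 10.57 in T9 and 4.28 in OG2.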
